A study of Mus musculus with 36 samples.

Results

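The 76 midday genes of the mouse heart described here had a 24 h rhythm in control hearts with a fitted peak between 10 and 16 h on a 24 h clock. They were chosen from 10599 tested genes, out of 23352 entries in the deposited tables. A gene was tested if its FPKM (fragments scaled to gene length and library total) averaged at least 1 over all 36 libraries. A curve with a period of 24 h, made of cosine and sine terms, was fitted to log2(FPKM + 1) of the 18 control libraries. A gene was taken if this curve had an R squared of at least 0.5, an amplitude of at least 0.2 (log2 units from mean to peak), and a peak from 10 up to 16 h. These limits took 78 genes. The clock genes Nr1d1 and Bhlhe40 were then left out, because the rule excludes the named clock and clock-output genes. The rhythm of the 76 genes in control hearts is therefore a description of how they were chosen and carries no test. Their behaviour in hearts without Klf15 was not used in the choice, except through the filter on mean FPKM.

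The tested hearts, cK15, were labelled as a knockout of Klf15, a zinc-finger transcription factor of the Kruppel-like family. The control hearts came from mice carrying the alpha-MHC cre transgene, whose promoter is active in heart muscle cells. The labels do not say whether cK15 mice carried the same transgene or in which cells Klf15 was removed. All mice were C57BL/6J males aged 11 to 12 weeks, lit for 12 h and dark for 12 h of each day, and RNA was taken from the apex of the heart every 4 h from 12 am, read as midnight, to 8 pm. Each genotype had 3 libraries per time, 18 in all. The labels do not tie the libraries of a group to different animals; the p-values therefore reflect spread among libraries, part of which may be technical. The hour of lights-on is not stated in the labels.

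Klf15 was listed at 0 FPKM in 13 of 18 cK15 libraries and reached 0.326 FPKM in the highest of the others, against 0.406 to 2.91 FPKM in control libraries. Markers matched the labelled tissue: the 12 cardiomyocyte markers summed to between 70208 and 135318 FPKM in cK15 libraries and between 71344 and 124007 FPKM in control libraries. In each group the library with the lowest level of the ventricular myosin light chain Myl2 was marked, so 1 per group is fixed by definition. Myl2 was at 29700 to 35773 FPKM in these 12 libraries, against 43872 to 71845 FPKM in the other 24. The share of the 10 most abundant genes was 16.1 to 17.7% in the 12 and at least 21.7% in the others. By both values these 12 stood apart in both genotypes alike. From 12 am to 4 pm they were the libraries with replicate number 1 in cK15 and 2 in control hearts. At 8 pm they were those with number 4 in both, so they nearly coincide with 1 replicate number per genotype. Summed FPKM per library lay between 534039 and 691583, and 10339 to 10829 genes per library reached 1 FPKM. Read depth is unknown, since the tables give no counts.

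The circadian clock of a heart cell is a loop in which the activators Arntl and Clock switch on the Per and Cry repressors, which then shut the activators down, and this loop together with feeding, body temperature, hormones and heart rate times many other genes. The extracellular matrix is the scaffold of collagens, microfibrils, basement membranes and proteoglycans between cells. Fibroblasts make most fibrillar collagen in the heart, and endothelial and mural cells contribute to basement membranes. Actin and its bundling, anchoring and regulatory proteins link that scaffold to the inside of the cell.

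By role, 13 of the 76 genes encode structural proteins or secreted components of the matrix, 6 encode enzymes or inhibitors that act on it, and 12 encode actin, adhesion, junction or motor proteins. Another 13 encode receptors, channels or signalling proteins, 14 serve metabolism, transport or secretion, and 10 act in RNA, genome or protein synthesis. Ankrd1, an ankyrin-repeat protein that rises in stretched heart muscle, stands alone, and 7 genes were given no role. All 76 genes were found in the RefSeq annotation of GRCm38, on 19 chromosomes. Col3a1 on chromosome 1 (45311538 to 45349706) and Col5a2 (45374331 to 45503282) lie 24625 bases apart, Fscn1 and Actb on chromosome 5 52379 bases apart, and Col6a2 and Col6a1 on chromosome 10 85162 bases apart. Of the 76, 37 overlap another annotated gene, among them Timp1 within the span of Syn1, so reads in an overlap could be assigned uncertainly if counting ignored strand.

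Promoters were read from RefSeq GRCm38.p6 as windows from 250 bases before to 50 bases after an annotated start, and 64 of the 76 genes had an entry. The start used was the outer end of the annotated gene for 35 of them and lay inside the gene for 29. The E-box CACGTG, the site of the Arntl and Clock pair, was found in 8 of the 64 windows (12.5%), against 12.15% of the windows of all tested genes and 7.15% of all windows. The related CACGTT was in 3 (4.69%, against 6.46% of tested genes). The KLF box CCACACCC, a site of Kruppel-like factors on either strand, was in 4 (6.25%, against 4.32% of tested genes), namely Col15a1, Mir22hg, Lpin3 and Ankrd13b. The cyclic AMP response element TGACGTCA was in Fscn1 and Mcam (3.13%, against 3.54%), and the serum response element was in Anxa5 (1.56%, against 1.67%). The D-box, the REV-ERB response element, the heat shock element and the glucocorticoid element were in 0 of the 64 windows. All motifs were searched on both strands, and a match is a string of letters in a window, not a site shown to be bound. To show what the windows look like, the 250 bases before the start are printed 5′ to 3′ in the direction of transcription for 3 of the genes described later, with the motif in capitals. Col15a1, a collagen of basement membrane zones that was also rhythmic in cK15 hearts, lies on the + strand (chr4:47207762-47208011) and holds the KLF box on the other strand, 49 to 42 bases before the start used, which lies 357 bases inside the annotated gene. Fscn1, the actin-bundling fascin with a lower amplitude in cK15 hearts, lies on the + strand (chr5:142960105-142960354) with the cyclic AMP element 45 to 38 bases before its start. Aldh18a1, an enzyme of proline synthesis that was also rhythmic in cK15 hearts, lies on the - strand (chr19:40588464-40588713) with the E-box 59 to 54 bases before its start.
Col15a1: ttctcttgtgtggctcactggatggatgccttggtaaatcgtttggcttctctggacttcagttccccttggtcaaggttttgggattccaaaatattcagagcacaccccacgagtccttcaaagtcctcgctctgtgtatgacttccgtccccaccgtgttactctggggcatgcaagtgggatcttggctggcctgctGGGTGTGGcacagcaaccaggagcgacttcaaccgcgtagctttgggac
Fscn1: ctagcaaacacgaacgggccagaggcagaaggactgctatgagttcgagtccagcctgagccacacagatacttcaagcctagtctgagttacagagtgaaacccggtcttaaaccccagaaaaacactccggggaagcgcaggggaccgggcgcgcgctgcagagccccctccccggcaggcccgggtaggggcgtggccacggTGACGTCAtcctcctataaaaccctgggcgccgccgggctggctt
Aldh18a1: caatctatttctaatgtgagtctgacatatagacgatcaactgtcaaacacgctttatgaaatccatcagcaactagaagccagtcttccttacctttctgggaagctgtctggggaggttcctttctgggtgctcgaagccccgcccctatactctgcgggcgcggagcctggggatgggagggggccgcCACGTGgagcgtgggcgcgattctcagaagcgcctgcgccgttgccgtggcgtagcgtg

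Some of the midday genes were rhythmic in hearts without Klf15 too. Of the 76, 12 passed the test for a 24 h rhythm in the 18 cK15 libraries alone (15.8%; limma, adjusted p under 0.05), while 1.08% of all tested genes passed (114 of 10599). At an unadjusted p under 0.05 the limma test took 42 of the 76, against 8.95% of all tested genes. The 12 were Fbn1, Col3a1, Col15a1, Col4a2, Aldh18a1, Srsf5, Rhoc, Mcam, Pde1b, Jam3, Tcp11l2 and Anxa5. The replicate number as a block gave more, 19 as a fixed term (background 1.91%) and 22 as a random series (background 2%), and an F test of the 6 time means without a curve gave 3, Fbn1, Col3a1 and Tcp11l2 (background 0.396%).

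The median amplitude of the 76 was 0.23 in cK15 hearts and 0.30 in control hearts on the log2 scale, and the medians over all tested genes were 0.084 in cK15 and 0.092 in control hearts. The amplitude was lower in cK15 for 71 genes and higher for 5, with a median ratio of 0.74. The limit on control amplitude acts on control hearts alone, so a lower value in the other genotype is partly fixed by the choice. A control value at a single hour is likewise part of the curve that chose the genes. Gaps between the genotypes at single hours are therefore partly fixed by the choice, and they are given below as description only. The same rule applied to the cK15 libraries took 51 genes, whose median amplitude was 0.32 in cK15 and 0.27 in control hearts (median control to cK15 ratio 0.80). The 13 genes that both choices shared made up 17.1% of the 76 and 25.5% of the 51. The test of the difference in rhythm between genotypes called 0 of the 76, and 0% of all tested genes, with 12 of the 76 at an unadjusted p under 0.05 in limma. That test uses the control curve which chose the genes, and its count of 12 has no share over all tested genes beside it. Nothing is therefore read from that test.

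**Figure D1:**
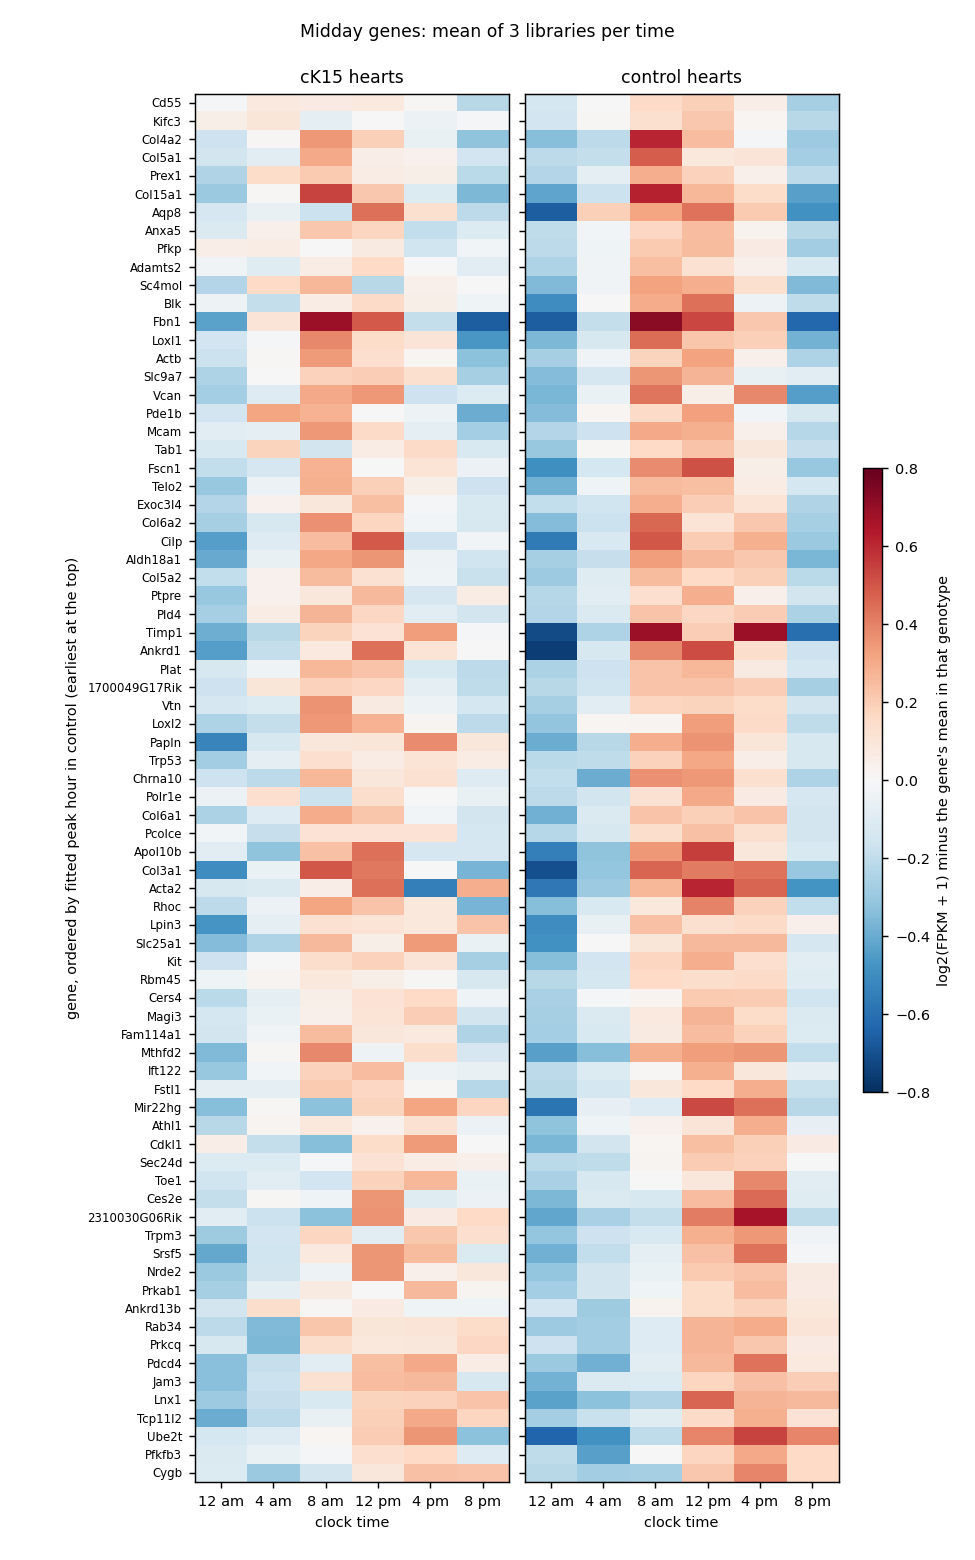
Mean log2(FPKM + 1) of the 3 libraries at each clock time, minus the gene's mean in that genotype, for the 76 midday genes in cK15 (left) and control hearts (right), ordered by fitted peak hour in control. In cK15 hearts 30 genes had their highest mean (red) at 8 am, 22 at 12 pm and 16 at 4 pm, and in control hearts red lies between 8 am and 4 pm by choice of the genes.

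In cK15 hearts the highest time mean was at 8 am for 30 genes, at 12 pm for 22, at 4 pm for 16, and at 4 am or 8 pm for 4 each, and the lowest was at 12 am for 38 and at 8 pm for 22. In control hearts, by choice of the genes, the highest was at 12 pm for 33 genes, at 8 am for 23 and at 4 pm for 20, and the lowest at 12 am for 56 and at 8 pm for 14. The heat map of time means shows the same pattern gene by gene. Of the 76, 49 had a fitted cK15 peak from 10 up to 16 h, against 22.5% of all tested genes whatever their rhythm. For 27 genes (0.255% of those tested) the cK15 curve both passed the limma test and peaked in that window, and 6 of them were among the 76.

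**Figure D2:**
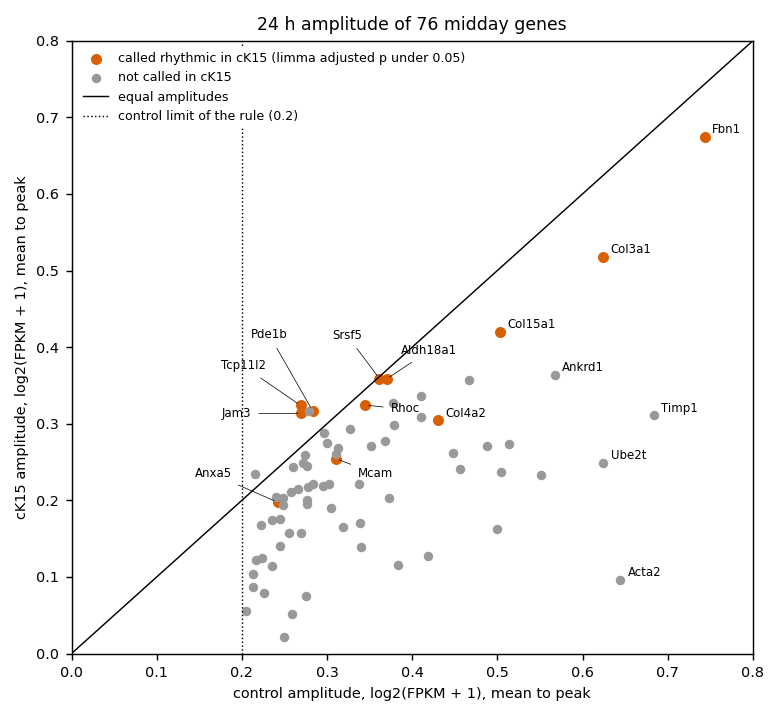
Fitted 24 h amplitude of each of the 76 genes in cK15 hearts (vertical) against control hearts (horizontal), both on the log2(FPKM + 1) scale from mean to peak; orange points passed the limma test for rhythm in cK15. Most points lie below the line of equal amplitudes, 71 of 76, with Fbn1 and Col3a1 near it and Acta2 far below it.

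Of the 13 structural genes of the matrix 4 were rhythmic in cK15 hearts and all 13 had an unadjusted p under 0.05 in the limma test. The shares over all tested genes were 1.08% and 8.95%. The median amplitude of the 13 was 0.30 in cK15 and 0.38 in control hearts. Averaged over the 6 times, 5 of the 13 fell in cK15 hearts (7.18% of all tested genes fell), and 12 of the 13 had a negative fold change. With replicate number as a random series 2 of the 5 remained, Col3a1 and Col5a2, where 2.38% of all tested genes fell. Fbn1, Fstl1 and Cilp then had limma adjusted p of 0.0898, 0.0624 and 0.146. The control peaks of all 13 lay between 10.10 and 12.70 h.

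Fbn1, which encodes fibrillin-1 of the elastic microfibrils, had the largest amplitude of the set in both genotypes. In cK15 hearts the 3 libraries at each time had 22.7, 17.3 and 20.2 FPKM at 12 am, 25.98, 28.7 and 33.5 FPKM at 4 am, 56.6, 32.6 and 46.8 FPKM at 8 am, 43.4, 36.3 and 36.2 FPKM at 12 pm, 23.8, 20.7 and 27.02 FPKM at 4 pm and 17.3, 15.1 and 18.1 FPKM at 8 pm. In control hearts they had 21.8, 19.9 and 20.1 FPKM at 12 am, 29.4, 31.03 and 26.6 FPKM at 4 am, 50.2, 60.6 and 55.6 FPKM at 8 am, 44.1, 48.2 and 53.6 FPKM at 12 pm, 38.3, 32.96 and 45.7 FPKM at 4 pm and 18.5, 21.3 and 23.9 FPKM at 8 pm. All cK15 libraries at 8 am and 12 pm lay above all those at 12 am and 8 pm, and at 12 pm, 4 pm and 8 pm every cK15 library was below every control library, while the genotypes overlapped at 12 am, 4 am and 8 am. The fitted amplitude was 0.67 in cK15 hearts (SE 0.065; limma adjusted p = 9.99e-06) and 0.74 in control hearts (SE 0.057), with peaks at 9.03 h in cK15 and 10.57 h in control. Averaged over the day Fbn1 fell by 0.28 on the log2 scale (SE 0.062; limma adjusted p = 0.00256), to 29.0 ± 11.5 FPKM in cK15 hearts against 35.7 ± 14.1 FPKM in control hearts (SD, n = 18 each).

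Col3a1, the chain of type III collagen that forms fine fibrils with type I collagen, moved in the same hours. In cK15 hearts its libraries had 76.04, 66.4 and 78.6 FPKM at 12 am, 94.9, 95.9 and 112 FPKM at 4 am, 163, 125 and 158 FPKM at 8 am, 144, 152 and 125 FPKM at 12 pm, 91.2, 111 and 112 FPKM at 4 pm and 70.6, 77.1 and 94.3 FPKM at 8 pm. In control hearts they had 91.4, 86.1 and 89.8 FPKM at 12 am, 109.7, 132 and 111 FPKM at 4 am, 181, 217 and 205 FPKM at 8 am, 188, 191 and 206 FPKM at 12 pm, 193, 181 and 216 FPKM at 4 pm and 96.1, 126 and 134 FPKM at 8 pm. The cK15 libraries lay below all control libraries of the same time at every time except 4 am, and the 4 pm libraries, still high in control hearts, had returned to the 4 am level in cK15 hearts. The amplitude was 0.52 in cK15 (SE 0.052; limma adjusted p = 1.99e-05) and 0.62 in control hearts (SE 0.058), and the peaks were at 10.18 h in cK15 and 11.95 h in control. Col3a1 averaged 108 ± 30.8 FPKM in cK15 and 153 ± 48.6 FPKM in control hearts (SD, n = 18 each), a log2 fold change of -0.48 (SE 0.052; limma adjusted p = 5.66e-08). This call held in all 46 alternative settings in which the gene was tested.

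The basement membrane collagens Col15a1 and Col4a2 were rhythmic in cK15 hearts without an averaged difference. Col15a1 had an amplitude of 0.42 in cK15 (SE 0.072; limma adjusted p = 0.00964) and 0.50 in control hearts (SE 0.066), with the highest time mean at 8 am in both, 31.9 ± 9.22 FPKM in cK15 and 35.1 ± 4.67 FPKM in control (SD, n = 3 each). Col4a2 had 0.30 in cK15 (SE 0.044; limma adjusted p = 0.00154) and 0.43 in control hearts (SE 0.066), and its 8 am mean was 68.3 ± 10.6 FPKM in cK15 and 87.0 ± 12.9 FPKM in control (SD, n = 3 each). Its neighbour Col4a1, transcribed from the same promoter region in the opposite direction, missed the peak limit by a narrow margin at 9.99 h.

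The fibril-forming collagens Col5a1 and Col5a2 and the beaded-filament collagens Col6a1 and Col6a2 followed with smaller swings. Their amplitudes were 0.19, 0.22, 0.27 and 0.27 in cK15 hearts and 0.31, 0.28, 0.31 and 0.35 in control hearts, in that order, and their limma adjusted p for rhythm in cK15 lay between 0.0584 (Col6a1) and 0.480 (Col5a1). Col5a2 averaged 17.8 ± 2.88 FPKM in cK15 and 22.5 ± 4.43 FPKM in control hearts (SD, n = 18 each) and fell by 0.31 on the log2 scale (SE 0.060; limma adjusted p = 0.000439). The other 3 had fold changes of -0.16 to -0.18 that did not pass.

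Among the remaining structural genes, Cilp, a cartilage and matrix glycoprotein, ranged from 0.652 to 3.22 FPKM with a median of 1.17 in cK15 hearts, against 0.929 to 4.66 FPKM with a median of 2.17 in control hearts. It fell by 0.43 (SE 0.094; limma adjusted p = 0.00216). Fstl1, a secreted follistatin-like glycoprotein, ranged from 23.2 to 43.0 FPKM with a median of 31.0 in cK15 hearts and from 29.7 to 50.6 FPKM with a median of 38.3 in control hearts, and fell by 0.31 (SE 0.064; limma adjusted p = 0.00125). Their libraries overlapped between genotypes. The proteoglycan versican (Vcan), the adhesive glycoprotein vitronectin (Vtn) and papilin (Papln) had averaged fold changes of 0.01, -0.10 and -0.09 that did not pass, and cK15 amplitudes of 0.30, 0.20 and 0.33.

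Among genes for matrix enzymes and inhibitors, 0 of 6 passed the limma test for rhythm in cK15 (4 at an unadjusted p under 0.05, against 8.95% of all tested genes). On average 4 of the 6 fell, where 7.18% of all tested genes fell. With replicate number as a random series none of these 4 averaged calls in limma remained, with adjusted p of 0.0940 (Adamts2) to 0.423 (Loxl1). In that setting 2 of the 6 were rhythmic in cK15, where 2% of all tested genes were. Timp1, a secreted inhibitor of matrix metalloproteinases, had 2.93, 3.14 and 1.11 FPKM at 12 am, 4.52, 2.10 and 1.83 FPKM at 4 am, 8.22, 2.54 and 2.45 FPKM at 8 am, 5.10, 4.46 and 1.94 FPKM at 12 pm, 3.81, 6.72 and 3.14 FPKM at 4 pm and 1.77, 4.65 and 3.77 FPKM at 8 pm in cK15 libraries. In control libraries it had 1.90, 6.46 and 2.15 FPKM at 12 am, 5.36, 5.202 and 3.59 FPKM at 4 am, 10.05, 8.87 and 10.6 FPKM at 8 am, 6.90, 7.39 and 5.93 FPKM at 12 pm, 8.87, 7.63 and 13.7 FPKM at 4 pm and 2.27, 3.27 and 5.19 FPKM at 8 pm. At 8 am, 12 pm and 4 pm all cK15 libraries were below all control libraries, and at the other times they overlapped. High control values at these hours are part of the curve that chose the gene, so this gap is description only. The averaged log2 fold change of -0.66 (SE 0.16; limma adjusted p = 0.00493) was the lowest of the 76, with 3.57 ± 1.83 FPKM in cK15 and 6.41 ± 3.23 FPKM in control hearts (SD, n = 18 each). The amplitude was 0.31 in cK15 (SE 0.16; limma adjusted p = 0.829) and 0.68 in control hearts (SE 0.15).

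Adamts2, which trims the amino-terminal end of procollagens, fell by 0.30 (SE 0.066; limma adjusted p = 0.00256), and Pcolce, which enhances the trimming of the carboxyl-terminal end, fell by 0.16 (SE 0.040; limma adjusted p = 0.00606). The crosslinking enzyme Loxl1 fell by 0.23 (SE 0.075; limma adjusted p = 0.0403), a call lost in 26 of 46 alternative settings. Its relative Loxl2 had a fold change of -0.04, and Plat, the tissue plasminogen activator, one of -0.15 (limma adjusted p = 0.0599). Loxl1 and Plat came close to the threshold for rhythm in cK15 hearts, with amplitudes of 0.34 and 0.25 (limma adjusted p = 0.0645 and 0.0556).

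The wider list of 58 matrix and remodelling genes, chosen with earlier results of these data known, had 53 tested genes and held 12 of the 76. In cK15 hearts 12 of the 53 were rhythmic (1.08% of all tested genes were), and on average 1 was higher and 12 were lower (4.06% and 7.18% of all tested genes). With replicate number as a random series 15 were rhythmic, 0 were higher and 4 were lower in limma. The shares over all tested genes in that setting were 2%, 0.887% and 2.38%. The median fold change was -0.15, against -0.012 over all tested genes. The median amplitude was 0.17 in cK15 and 0.26 in control hearts, against 0.084 in cK15 and 0.092 in control hearts over all tested genes. Outside the 76, Col5a3 (amplitude 0.98 in cK15 and 0.96 in control hearts) and Eln, which encodes elastin (0.59 in cK15 and 0.68 in control hearts), had larger swings than most of them but peaked before 10 h in control, and Timp3 (0.58 in cK15 and 0.55 in control hearts), another metalloproteinase inhibitor, peaked at 20.54 h in control. These 3 were named after their values were seen.

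Since fibroblasts make much of this matrix, their markers stand beside these values. Of 8 fibroblast markers tested, 0 belonged to the 76, 0 were rhythmic in cK15 hearts, and 5 fell on average (2 with replicate number as a random series). Their median amplitude was 0.11 in cK15 and 0.19 in control hearts. Over all tested genes 1.08% were rhythmic in cK15 and 7.18% fell (2.38% with replicate number as a random series). Col1a1, a chain of type I collagen, had amplitudes of 0.40 in cK15 (limma adjusted p = 0.208, unadjusted 0.00592) and 0.42 in control hearts, with peaks at 9.55 h in cK15 and 9.89 h in control. Pdgfra, a receptor of fibroblasts, had 0.14 in cK15 (limma adjusted p = 0.377, unadjusted 0.0179) and 0.21 in control hearts. The summed level of the list was 1208 to 1572 FPKM in cK15 libraries and 1416 to 1789 FPKM in control libraries, with time means of 1317 to 1457 FPKM in cK15 and 1519 to 1631 FPKM in control hearts. That sum is mostly Gsn and Dcn, at 853 and 511 FPKM on average over all libraries, so it does not show the time course of the others. The fitted peaks of Dcn and Gsn lay far from midday, at 23.24 and 23.77 h in cK15 and 22.55 and 21.37 h in control hearts. Their amplitudes were small, at 0.084 for both in cK15 and 0.11 and 0.03 in control hearts. In whole tissue, fewer cells of a type and less RNA per cell cannot be told apart. Of 9 macrophage markers 7 fell (0 with replicate number as a random series in limma), with summed levels of 159 to 252 FPKM in cK15 and 179 to 274 FPKM in control libraries, and 0 of 9 endothelial markers passed in averaged level in limma (6 had an unadjusted p under 0.05). A single marker of each of the macrophage and endothelial lists was rhythmic in cK15 hearts. These were the endothelial receptor Kdr, with an amplitude of 0.38 in cK15 (limma adjusted p = 0.00127) and 0.48 in control hearts, and the macrophage marker Emr1, with 0.34 in cK15 (limma adjusted p = 0.0255) and 0.11 in control hearts. The 6 markers with values of their own here were named after their values were seen. Lymphocyte and adipocyte markers were near 0, at sums of at most 4.93 FPKM in cK15 and 4.68 FPKM in control libraries, with none tested. The part of these cells in the averaged differences and in the rhythms was not tested.

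**Figure D3:**
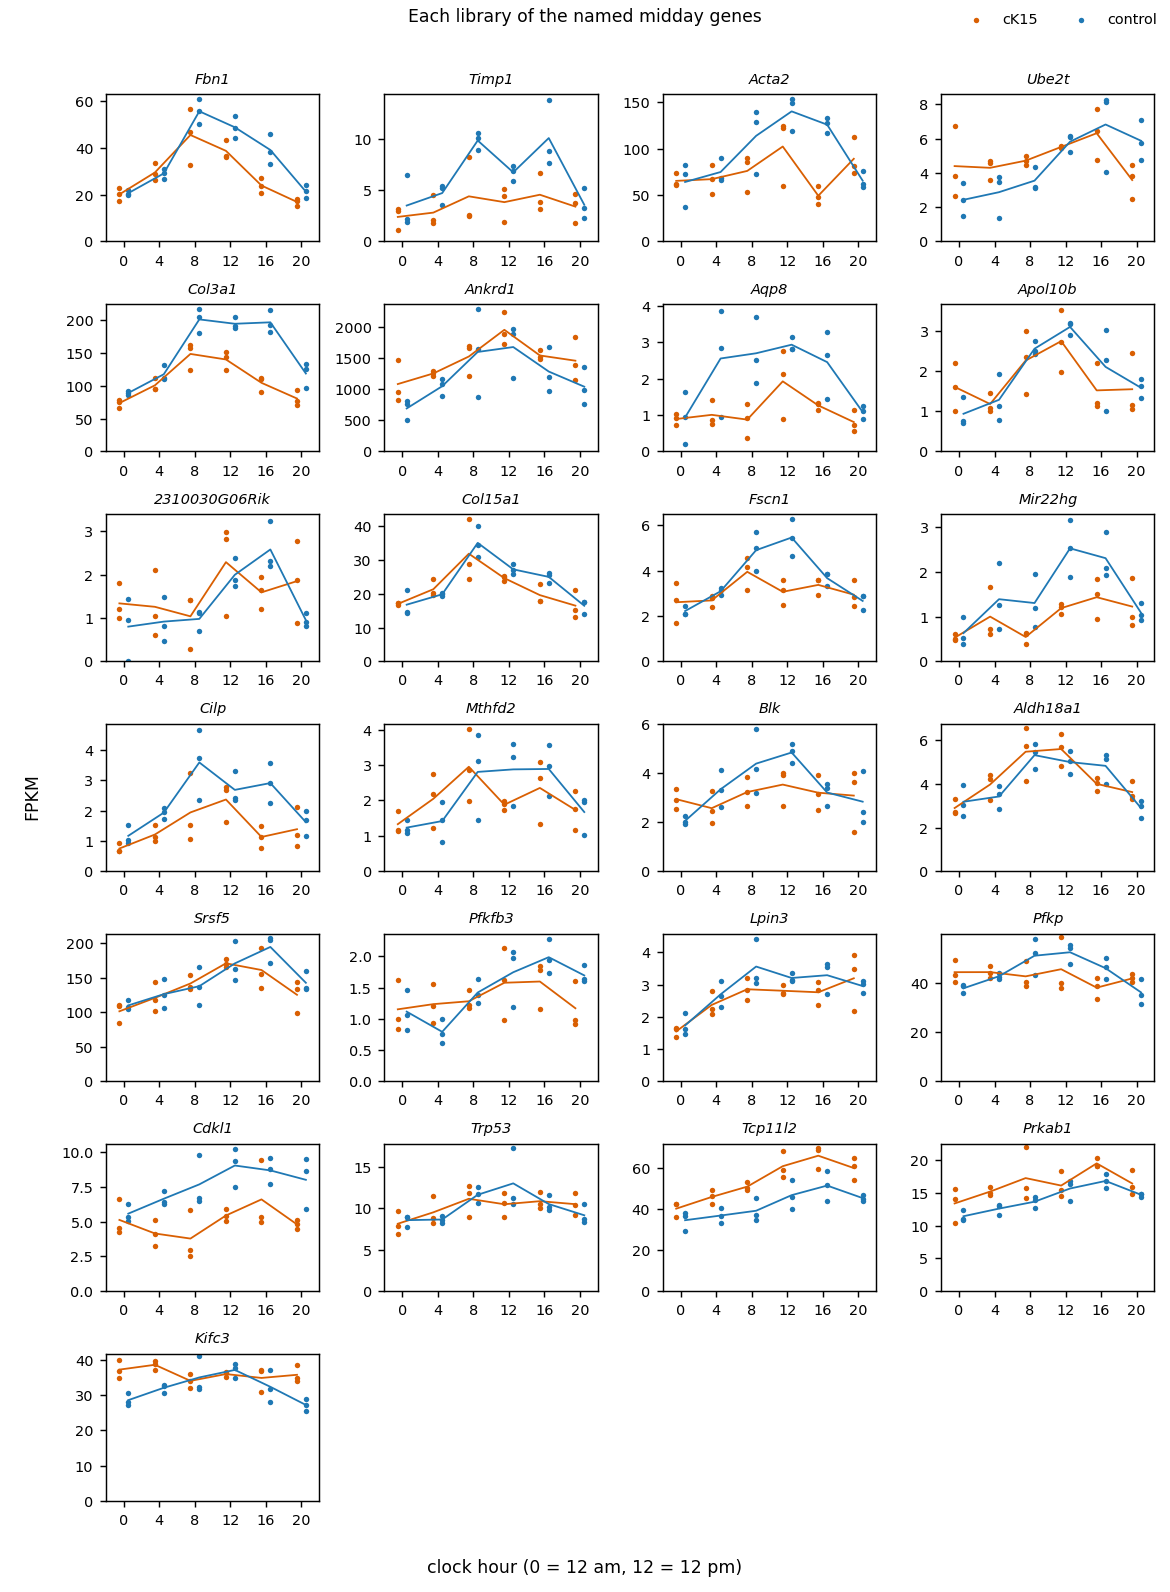
FPKM in each library against clock hour for the midday genes named by rule, in cK15 (orange, drawn slightly left of the hour) and control hearts (blue); lines join the time means of 3 libraries, and each panel's vertical axis starts at 0. Fbn1 and Col3a1 rise at 8 am in both genotypes. The blue lines of Acta2 and Timp1 lie above the orange ones from 8 am to 4 pm, and that of Fscn1 most clearly at 12 pm. Control values at these hours are part of the curves that chose the genes.

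Of the 12 actin, adhesion, junction and motor genes, 4 passed the limma test in cK15: Rhoc, a small GTPase that steers actin assembly, Mcam, an adhesion molecule of endothelial and mural cells, Jam3, a junctional adhesion molecule, and Anxa5, a calcium-dependent membrane-binding protein. Their amplitudes were 0.32, 0.25, 0.31 and 0.20 in cK15 hearts and 0.35, 0.31, 0.27 and 0.24 in control hearts, with limma adjusted p in cK15 of 0.041, 0.0135, 0.0071 and 0.0493. Among all tested genes 1.08% passed that test. The Rhoc call was lost in 16 and the Anxa5 call in 21 of 47 alternative settings. Mcam also fell by 0.19 on average (SE 0.050; limma adjusted p = 0.00992), to 25.0 ± 3.995 FPKM in cK15 against 28.8 ± 5.61 FPKM in control hearts (SD, n = 18 each).

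Acta2, the smooth muscle actin of vessel walls and activated fibroblasts, had the widest gap in amplitude of the 76. In cK15 hearts its libraries had 61.4, 61.1 and 73.2 FPKM at 12 am, 82.5, 51.2 and 67.6 FPKM at 4 am, 85.4, 89.6 and 52.9 FPKM at 8 am, 122, 124 and 60.2 FPKM at 12 pm, 59.8, 39.9 and 47.9 FPKM at 4 pm and 73.7, 81.3 and 112 FPKM at 8 pm. In control hearts they had 72.96, 37.2 and 81.9 FPKM at 12 am, 90.3, 66.2 and 67.8 FPKM at 4 am, 72.9, 129 and 139 FPKM at 8 am, 119, 153 and 149 FPKM at 12 pm, 128, 117 and 132 FPKM at 4 pm and 61.7, 75.7 and 58.96 FPKM at 8 pm. At 4 pm all cK15 libraries were below all control libraries, and at the other 5 times the genotypes overlapped; at 12 pm the cK15 libraries themselves spread from 60.2 to 124 FPKM. The amplitude was 0.10 in cK15 (SE 0.14; limma adjusted p = 0.999) and 0.64 in control hearts (SE 0.10). On average Acta2 fell by 0.35 (SE 0.11; limma adjusted p = 0.045), a call lost in 26 of 46 alternative settings. Acta2 shares long stretches with the other actins, cardiac Actc1 and skeletal Acta1, so its level is uncertain where reads were split between copies. Of the 7 tested markers of smooth muscle and pericytes Acta2 alone belonged to the 76 and alone passed in averaged level, and their sum had time means of 245 to 320 FPKM in cK15 and 281 to 368 FPKM in control hearts.

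Fscn1 had 2.69, 1.69 and 3.44 FPKM at 12 am, 2.81, 2.88 and 2.38 FPKM at 4 am, 4.56, 4.15 and 3.13 FPKM at 8 am, 3.58, 3.16 and 2.46 FPKM at 12 pm, 3.58, 3.60 and 2.93 FPKM at 4 pm and 2.43, 3.57 and 2.82 FPKM at 8 pm in cK15 libraries. In control libraries it had 2.46, 2.09 and 2.10 FPKM at 12 am, 2.92, 3.13 and 3.22 FPKM at 4 am, 5.72, 3.997 and 4.99 FPKM at 8 am, 5.46, 4.65 and 6.27 FPKM at 12 pm, 3.83, 3.84 and 3.34 FPKM at 4 pm and 2.89, 2.24 and 2.86 FPKM at 8 pm. The control libraries of 12 pm all exceeded the cK15 libraries of that hour, as did those of 4 am by a small margin, and the other times overlapped. The amplitude was 0.16 in cK15 (SE 0.078; limma adjusted p = 0.782) and 0.50 in control hearts (SE 0.054), and the averaged fold change of -0.16 did not pass (limma adjusted p = 0.134). Its chromosomal neighbour Actb, cytoplasmic beta-actin, had amplitudes of 0.29 in cK15 (SE 0.063; limma adjusted p = 0.0645) and 0.30 in control hearts (SE 0.068), and time means from 175 ± 37.6 to 276 ± 41.6 FPKM in cK15 and from 193 ± 8.09 to 293 ± 52.6 FPKM in control (SD, n = 3 each). Actb is often taken as a constant reference gene.

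Of the others, Rab34, a GTPase of membrane traffic and cilia, fell by 0.21 (SE 0.058; limma adjusted p = 0.0129). Kifc3, a minus-end-directed kinesin, rose by 0.17 (SE 0.041; limma adjusted p = 0.00427), with 30.8 to 39.97 FPKM and a median of 36.4 in cK15 libraries and 25.4 to 40.9 FPKM and a median of 31.6 in control libraries. Its curve was nearly flat in cK15 hearts, at an amplitude of 0.06 against 0.21 in control, the smallest control amplitude of the set. The Rac activator Prex1, the scaffold Magi3 and the ciliary transport protein Ift122 had averaged fold changes between -0.13 and 0.01 that did not pass. With replicate number as a random series the averaged differences of Mcam, Acta2, Rab34 and Kifc3 did not pass, with limma adjusted p of 0.158 (Kifc3) to 0.487 (Acta2).

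Ankrd1 was the most abundant of the 76. In cK15 libraries it had 824, 1459 and 959 FPKM at 12 am, 1214, 1255 and 1284 FPKM at 4 am, 1208, 1665 and 1695 FPKM at 8 am, 1731, 2244 and 1878 FPKM at 12 pm, 1484, 1620.3 and 1513 FPKM at 4 pm and 1151, 1834 and 1381 FPKM at 8 pm. In control libraries it had 501, 803 and 763 FPKM at 12 am, 1164, 889.8 and 1084 FPKM at 4 am, 873, 1636 and 2277 FPKM at 8 am, 1180.5, 1876 and 1966 FPKM at 12 pm, 976, 1678 and 1189.9 FPKM at 4 pm and 987, 1361 and 767 FPKM at 8 pm. At 12 am and 4 am every cK15 library was above every control library, and from 8 am to 8 pm they overlapped. Its amplitude was 0.36 in cK15 (SE 0.078; limma adjusted p = 0.0539) and 0.57 in control hearts (SE 0.12), and its averaged fold change was 0.33 (SE 0.11; limma adjusted p = 0.0562). Both values lay just outside the threshold, and the rhythm passed in 7 of 47 and the average in 11 of 46 alternative settings.

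The receptors, channels and signalling proteins had a median amplitude of 0.20 in cK15 and 0.28 in control hearts. Of 13, 1 was rhythmic in cK15 hearts, 1 rose and 3 fell on average, where 1.08%, 4.06% and 7.18% of all tested genes did. With replicate number as a random series only the fall of Cdkl1 passed, while Chrna10, Prkab1 and Pde1b had limma adjusted p of 0.257, 0.290 and 0.396. Pde1b, a calmodulin-dependent phosphodiesterase, had an amplitude of 0.32 in cK15 (SE 0.067; limma adjusted p = 0.0492) and 0.28 in control hearts (SE 0.069), and fell by 0.20 (SE 0.063; limma adjusted p = 0.0337); the calls were lost in 20 of 46 and 19 of 45 alternative settings. Its time means were highest at 4 am in cK15 hearts (1.74 ± 0.260 FPKM) and at 12 pm in control hearts (2.19 ± 0.380 FPKM, SD, n = 3 each). Cdkl1, a kinase related to the cyclin-dependent kinases, ranged from 2.55 to 9.44 FPKM with a median of 5.03 in cK15 libraries and from 5.07 to 10.2 FPKM with a median of 7.37 in control libraries. It fell by 0.54 (SE 0.088; limma adjusted p = 5.33e-05) in an averaged comparison that held in all 46 alternative settings. Chrna10, a nicotinic receptor subunit, fell by 0.28 (SE 0.071; limma adjusted p = 0.00761).

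Prkab1, a regulatory subunit of the energy sensor AMPK, rose by 0.19 (SE 0.054; limma adjusted p = 0.0195), to 16.3 ± 2.75 FPKM in cK15 against 14.2 ± 2.05 FPKM in control hearts (SD, n = 18 each). Its libraries overlapped at the extremes, from 10.4 to 21.96 FPKM in cK15 and from 10.8 to 17.9 FPKM in control. Blk, a Src-family kinase best known from B cells, had an amplitude of 0.13 in cK15 (SE 0.088; limma adjusted p = 0.961) and 0.42 in control hearts (SE 0.080), although B cell markers were near 0. Tab1, a partner of the kinase TAK1, had 0.05 in cK15 and 0.26 in control hearts. Kit, Lnx1, Prkcq, Ptpre, Trpm3, Cd55 and Pld4 had cK15 amplitudes between 0.12 and 0.26 and limma adjusted p for rhythm in cK15 between 0.128 (Lnx1) and 0.934 (Trpm3).

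Of 14 genes of metabolism, transport and secretion, 1 passed the limma test for rhythm in cK15, where 1.08% of all tested genes passed, and 5 had an unadjusted p under 0.05, against 8.95%. The gene that passed was Aldh18a1, with an amplitude of 0.36 in cK15 (SE 0.063; limma adjusted p = 0.0119) and 0.37 in control hearts (SE 0.066). Its time means ran from 2.89 ± 0.343 FPKM at 12 am to 5.59 ± 0.723 FPKM at 12 pm in cK15 hearts, and from 2.89 ± 0.406 FPKM at 8 pm to 5.31 ± 0.576 FPKM at 8 am in control hearts (SD, n = 3 each). Proline, whose synthesis Aldh18a1 serves, is a major residue of collagen.

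Aqp8, a water channel, was the 1 metabolic gene past the threshold on average: it ranged from 0.383 to 2.76 FPKM with a median of 0.973 in cK15 libraries, against 0.209 to 3.88 FPKM with a median of 2.20 in control libraries, and fell by 0.49 (SE 0.12; limma adjusted p = 0.00496, or 0.176 with replicate number as a random series). Over all tested genes 4.06% rose and 7.18% fell. Pfkp, the platelet form of phosphofructokinase, had an amplitude of 0.08 in cK15 (SE 0.057; limma adjusted p = 0.982) and 0.28 in control hearts (SE 0.045), with similar averages of 42.7 ± 5.54 FPKM in cK15 and 44.2 ± 7.34 FPKM in control (SD, n = 18 each). The list of glucose uptake, glycolysis and glycogen genes had 46 tested genes, of which Pfkp and Pfkfb3 belonged to the 76. In limma 0 were rhythmic in cK15 hearts, and 4 were higher and 6 lower on average (4.06% and 7.18% of all tested genes). With replicate number as a random series 2 were higher and 3 lower (0.887% and 2.38% of all tested genes). Pfkfb3, which sets the level of the phosphofructokinase activator fructose 2,6-bisphosphate, had 0.14 in cK15 and 0.34 in control hearts. Mthfd2 of mitochondrial folate metabolism, the citrate carrier Slc25a1, the sterol-synthesis enzyme Sc4mol (Msmo1 in RefSeq) and the lipin Lpin3 had 0.24, 0.29, 0.11 and 0.22 in cK15 hearts, and 0.46, 0.33, 0.38 and 0.28 in control hearts, in that order. Cygb, Ces2e, Athl1 (Pgghg in RefSeq), Cers4, Sec24d and Slc9a7 had cK15 amplitudes between 0.11 and 0.28 and averaged fold changes between -0.23 and 0.06, none past a threshold.

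Among genes of RNA, genome and protein synthesis, Srsf5, a splicing factor, was rhythmic in cK15 hearts. In cK15 libraries it had 110.3, 108 and 84.6 FPKM at 12 am, 117, 143 and 101 FPKM at 4 am, 136, 133 and 154 FPKM at 8 am, 165, 170.0 and 177 FPKM at 12 pm, 193, 156 and 134 FPKM at 4 pm and 98.01, 144 and 133 FPKM at 8 pm. In control libraries it had 117, 107 and 105 FPKM at 12 am, 148, 124 and 105 FPKM at 4 am, 166, 136 and 111 FPKM at 8 am, 203, 162 and 146 FPKM at 12 pm, 205, 207 and 171 FPKM at 4 pm and 134, 134 and 159 FPKM at 8 pm. The genotypes overlapped at every time, with all 12 am libraries of cK15 hearts below all its 12 pm and 4 pm libraries. The amplitude was 0.36 in both, with a limma adjusted p of 0.0103 in cK15 (SE 0.062) and an SE of 0.064 in control hearts, and the peak was at 12.68 h in cK15 and 14.24 h in control. Mir22hg, the host transcript of miR-22, fell by 0.32 (SE 0.092; limma adjusted p = 0.02, or 0.304 with replicate number as a random series), with 0.381 to 1.86 FPKM and a median of 0.881 in cK15 libraries and 0.387 to 3.16 FPKM and a median of 1.28 in control libraries.

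Polr1e, a subunit of RNA polymerase I, had an amplitude of 0.02 in cK15 (SE 0.083; limma adjusted p = 0.999) and 0.25 in control hearts (SE 0.059). Ube2t, a ubiquitin-conjugating enzyme of DNA crosslink repair, had 0.25 in cK15 (SE 0.097; limma adjusted p = 0.595) and 0.62 in control hearts (SE 0.11). The translation inhibitor Pdcd4 had 0.31 in cK15 (limma adjusted p = 0.127) and 0.41 in control hearts, and the tumour suppressor Trp53 had 0.16 in cK15 and 0.27 in control hearts. Telo2, Toe1, Nrde2 and Rbm45 had cK15 amplitudes between 0.09 and 0.27 without passing.

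Of the 7 genes given no role, Tcp11l2 stood out by its level. In cK15 libraries it had 42.3, 42.3 and 36.1 FPKM at 12 am, 49.3, 46.3 and 42.3 FPKM at 4 am, 49.4, 50.1 and 53.3 FPKM at 8 am, 58.95, 55.5 and 68.3 FPKM at 12 pm, 69.9, 59.6 and 68.7 FPKM at 4 pm and 54.4, 64.8 and 60.9 FPKM at 8 pm. In control libraries it had 36.5, 29.1 and 38.2 FPKM at 12 am, 33.3, 40.5 and 36.7 FPKM at 4 am, 45.6, 34.8 and 37.2 FPKM at 8 am, 54.2, 40.2 and 46.1 FPKM at 12 pm, 58.7, 43.99 and 51.7 FPKM at 4 pm and 45.1, 46.9 and 44.1 FPKM at 8 pm. At all times except 12 am every cK15 library was above every control library. It rose by 0.34 (SE 0.051; limma adjusted p = 1.41e-05), to 54.0 ± 10.1 FPKM in cK15 against 42.4 ± 7.61 FPKM in control hearts (SD, n = 18 each). Its rhythm passed in cK15 with an amplitude of 0.32 (SE 0.049; limma adjusted p = 0.00296), beside 0.27 in control hearts (SE 0.055), and both calls held in all alternative settings. The other 6, Apol10b, 2310030G06Rik, Fam114a1, Exoc3l4, Ankrd13b and 1700049G17Rik, passed neither test, with cK15 amplitudes between 0.08 and 0.27.

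Averaged over the 6 times, 20 of the 76 genes passed the limma test (26.3%, against 11.2% of all tested genes): 3 were higher in cK15 (3.95%, against 4.06%) and 17 lower (22.4%, against 7.18%). The rule sets no limit on the difference in mean level, but its limits on the curve apply to control hearts alone. The scale used understates changes of low genes, so a higher control level makes the amplitude limit easier to pass. The choice can therefore favour genes that are lower in cK15. How much of the split between higher and lower genes, here and in the role groups, follows from the choice was not tested. The 3 that rose were Tcp11l2, Prkab1 and Kifc3. The 17 that fell were, from the lowest fold change upward, Timp1, Cdkl1, Aqp8, Col3a1, Cilp, Acta2, Mir22hg, Col5a2, Fstl1, Adamts2, Chrna10, Fbn1, Loxl1, Rab34, Pde1b, Mcam and Pcolce, 9 of them structural or processing genes of the matrix. Of the 76, 58 had a negative fold change, against 54.2% of all tested genes, and the median was -0.10. With replicate number as a random series 4 of the 20 remained, Col3a1, Col5a2 and Cdkl1 lower and Tcp11l2 higher (background 3.26%), and as a fixed term 18 genes passed. Over all tested genes the split of 430 higher and 761 lower became 606 higher and 637 lower after median-ratio rescaling, while the 76 had 3 higher and 14 lower.

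**Figure D4:**
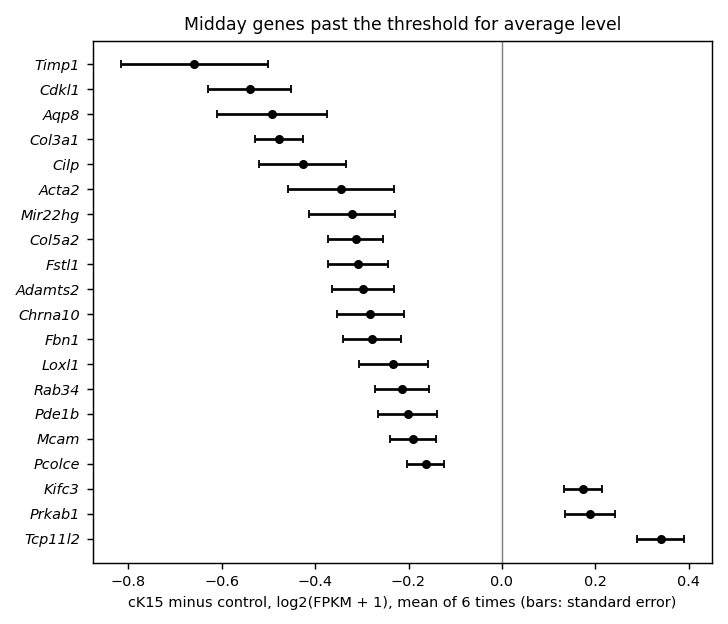
Averaged log2 fold change, cK15 minus control, on the log2(FPKM + 1) scale with its standard error (bars) for the 20 midday genes past the limma threshold. Values run from -0.66 (Timp1) to 0.34 (Tcp11l2), with 17 genes below 0 and 3 above it.

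The hour of the peak was earlier in cK15 hearts for all 12 genes that were rhythmic there. Their fitted peaks had a median of 9.54 h in cK15 and 10.96 h in control hearts, and the median difference was -1.67 h (cK15 minus control). Single differences ran from -3.46 h (Pde1b) to -0.36 h (Tcp11l2), and 6 of the 12 peaked before 10 h in cK15. Of all 76, 52 had an earlier fitted peak in cK15, but the hour of a flat curve is poorly fixed, as for Polr1e with an SE of 15.0 h in cK15. The count of 52 has no share over all tested genes beside it, so nothing is read from it. The window from 10 to 16 h was applied to control peaks alone, so the difference is given as a description with no test.

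**Figure D5:**
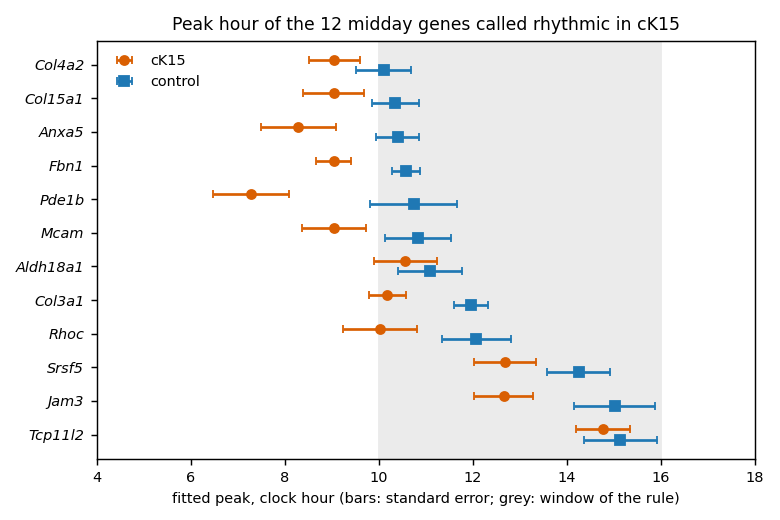
Fitted peak hour with its standard error in cK15 (circles) and control hearts (squares) for the 12 midday genes that passed the limma test for rhythm in cK15; grey marks the window of the rule, 10 to 16 h. Every circle lies to the left of its square, with a median difference of -1.67 h.

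For comparison, 14 clock genes were rhythmic in cK15 and passed the R squared and amplitude limits in control hearts: Arntl, Clock, Npas2, Per1, Per2, Per3, Cry1, Nr1d1, Nr1d2, Bhlhe40, Bhlhe41, Dbp, Tef and Gm129. Their median difference was -1.61 h (range -2.75 to -0.80 h), and all 14 peaked earlier in cK15. When each replicate number was fitted as its own series of 6 times and set against the control peak, the 12 genes gave medians of -1.61, -1.24 and -1.91 h in the cK15 series 1, 3 and 4, and of -0.26, -0.22 and 0.53 h in the control series 2, 3 and 4. The clock genes gave -1.59, -1.61 and -1.44 h in cK15 and -0.20, -0.13 and 0.39 h in control. The control peak was fitted on the control series themselves, so the control medians lie around 0 by construction. They are no independent measure of spread, and all series values are given as description. No single gene passed the test of a difference in rhythm, and Per2 and Arntl had limma adjusted p of 0.352 and 0.361. The time of day of each collection is known only from the labels, so a difference in collection time between genotypes and a difference in phase cannot be told apart.

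By control peak, 43 of the 76 peaked before 12 h, 17 from 12 up to 14 h and 16 from 14 h on, of which 8, 1 and 3 were rhythmic in cK15 hearts. The matrix structure genes had a median control peak of 11.08 h and the genes of RNA, genome and protein synthesis one of 13.44 h. Around the limits of the rule, Ces2e, Aqp8 and Cdkl1 entered with an R squared of 0.5001, 0.510 and 0.512, and Nabp1, Lilrb4 and Nppa stayed out with 0.497, 0.497 and 0.496. Kifc3, Adamts2 and Rbm45 entered with amplitudes of 0.205, 0.213 and 0.213, and Spryd3, Hip1r and Fam129a stayed out with 0.198, 0.195 and 0.189. At the early end Cd55, Kifc3 and Col4a2 entered at 10.03, 10.09 and 10.10 h, while Col4a1, Col6a3 and Ush1c stayed out at 9.99, 9.87 and 9.86 h. At the late end Cygb, Pfkfb3 and Ube2t entered at 15.97, 15.30 and 15.23 h, while Cirbp, Zfand2b and Tmem55b stayed out at 16.11, 16.19 and 16.35 h.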

How the data were processed

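RNA of the mouse heart apex was measured by sequencing of ribosome-depleted total RNA. The authors deposited FPKM, 1 table per genotype, by gene symbol and library. The mouse build mm10 and the tools GSNAP and HTSeq are named, per the submitters' processing notes, with no version or role. The annotation and the program behind the FPKM values are not stated there, and no whole reads could be recovered from low values, so depth is unknown. Because FPKM is scaled to each library's total, very abundant genes can lower the rest.

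Values were analysed as log2(FPKM + 1), a scale that understates changes of low genes, for 10599 genes whose mean FPKM reached 1. limma 3.58.1 in R 4.3.3, with trended and robust variance moderation, gave the rhythm test (cosine and sine of clock hour, 24 h) in the 18 cK15 libraries, the average of cK15 minus control over 12 group means, and the difference in rhythm over 36 libraries. Benjamini-Hochberg adjustment ran over all 10599 genes, with a threshold of 0.05. The fitting was tested on simulated data. Groups came from sample titles. The 76 genes, the gene lists and the role groups were chosen with earlier results of these data known. Any of the 76 could be named, and values in every library were drawn for those of largest amplitude, smallest amplitude ratio (among control amplitudes of at least 0.4), highest and lowest averaged change, and up to 4 per list. In the text, each library's values are given for 8 of these.

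Replicate numbers 3 and 4 occur in both genotypes. Same-numbered libraries of the same time deviated together in all 12 cK15 and control pairs (correlation 0.157 to 0.508). Within cK15 10 of 45 pairs across times were at or under 0.1. The agreement can follow in part from the 12 libraries that stood apart. Up to 4 pm these had numbers other than 3 and 4, and at 8 pm number 4 in both genotypes. Pairs of different numbers were not compared, so the agreement does not show that a number links libraries across genotypes. Blocked values stand beside the counts they change. Entries with symbols converted to dates (27) or repeated symbols (2) are not named. A clock gene is not reported here and was left out of the clock lists.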

Additional observations from a re-analysis of the deposited data

How the results depend on the processing

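Depth is unknown, and 3 libraries per time limit what can be told apart at a single hour. The 0 calls for a difference in rhythm among the 76 stayed 0 in all alternatives run. Over all tested genes 0 became 2 without the 12 libraries that stood apart and 1 with a term for them. In limma 12 of the 76 had an unadjusted p under 0.05 for that difference, with no share over all tested genes beside it. The test uses the control curve that chose the genes, so nothing is read from the 12. The count rhythmic in cK15 (12) became 19 with the replicate block as a fixed term, 22 with the replicate block as a random series, 20 with a term for the 12 libraries that stood apart, and 3 with an F test of 6 time means. Leaving out 1 library gave 8 to 13, the 8 without cK15 8 am replicate 3 or 4. The averaged count (20) became 4 with the replicate block as a random series (1 higher, 3 lower). It ranged from 17 to 23 with 1 library left out (3 to 5 higher, 14 to 19 lower), with 5 higher without control 4 pm replicate 3. With the term for the 12 libraries the averaged count became 30, with 6 higher and 24 lower. The shares of all tested genes with that term were 20.5% in either direction, 8.53% higher and 11.9% lower. The set itself (76) became 173 genes without the 12 libraries, 63 of them shared, 41 at an R squared of at least 0.6, 38 at an amplitude of at least 0.3, and 76 to 98 with 1 library left out. Where no reason is stated, the cause was not tested. No result reversed in any alternative run, among them an FPKM pseudocount of 0.1, median-ratio and quantile rescaling and a mean FPKM minimum of 5.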

Other observations

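Beside the matrix list, 13 of 19 tested genes of the clock list, which does not hold Gm129, were rhythmic in cK15 hearts, with median amplitudes of 0.58 in cK15 and 0.64 in control hearts, while the 36 sarcomere and Z-disc genes had 1 rhythmic gene in cK15 and median amplitudes of 0.07 in cK15 and 0.09 in control hearts. The 27 tested genes of antigen presentation and interferon response, which display peptides to immune cells, had 2 rhythmic genes in cK15 hearts (1.08% of all tested genes were) and 6 that were lower on average (7.18% of all tested genes), 0 of them lower with replicate number as a random series in limma.

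Mmp14, a membrane-bound matrix metalloproteinase just outside the rule with an R squared of 0.457 in control hearts, was rhythmic in cK15 hearts with an amplitude of 0.60 (limma adjusted p = 0.00039), beside 0.42 in control hearts; it was chosen after its values were seen.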
